A study of Mus musculus with 42 samples.

Results

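The comparison asked what the loss of 1 copy of the miR-142 gene did to the RNA of mouse prefrontal cortex. It set 4 libraries from mice heterozygous for miR-142 against 4 from mice with a wild-type gene, chosen by the genotype in their labels. These are 8 of the 42 libraries of the series, and 12 of the 42, with 4 more from miR-142-null mice that have lost both copies, share the table of values used here. All are bulk total RNA from freshly dissected prefrontal cortex, given as RPKM, read numbers scaled by gene length and library size, for 20661 genes. Age, strain and the way the allele was made are not given in the sources used here, and whether each library is a separate animal is not stated in the labels either, so the errors below hold for the spread among these libraries, which may be technical. By totals inferred from the values, the 4 heterozygous libraries held 25.4 to 31.8 M reads and the 4 wild-type ones 22.8 to 26.5 M. Heterozygous replicates 1 to 3 were deeper than every wild-type library.

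A microRNA is a short RNA that guides Argonaute proteins to messenger RNAs, mostly through its seed, the bases near its 5′ end, and lowers the stability and translation of those that carry a match in the 3′ untranslated region (UTR). miR-142 is known as a microRNA of blood cells and their relatives, which in the brain means microglia and other immune cells rather than neurons. A change in a small cell population is diluted in RNA from whole cortex.

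The gene lies on mouse chromosome 11, where RefSeq places its hairpin at chr11:87756864-87756927 on the plus strand of GRCm38.p6, and it gives 2 mature arms. They are shown because every site search below starts from their seeds, bases 2 to 8 from the 5′ end, which are in capitals.
mmu-miR-142a-3p: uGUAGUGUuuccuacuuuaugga
mmu-miR-142a-5p: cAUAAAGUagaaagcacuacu
The seeds differ, so each arm has its own set of matches. The microRNA itself was not analysed here, so the dose of miR-142 in the heterozygous libraries was not measured.

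No gene passed the test between heterozygous and wild-type cortex. Genes were tested with limma on log2(RPKM + 0.5), with the error shared over all 12 libraries, and called at a Benjamini-Hochberg adjusted p under 0.05. Of 13879 genes tested, 0 (0%) were called, and voom on the recovered reads also called 0. At an unadjusted p under 0.05 there were 1008 genes, 463 higher (3.34% of those tested) and 545 lower (3.93%), and voom gave 1090. The smallest adjusted p was 0.144, for Epas1, the next 0.313, for Fezf2, and 973 genes shared the next value of 0.674. Every heterozygous library stood above every wild-type library in 191 genes (1.38%) and below in 184 (1.33%). With 4 libraries a group, shares of this size can arise by chance alone. A lack of overlap in a single gene, given for several genes below, is therefore weak evidence of a difference.

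The size of what could have been missed was bounded gene by gene. Over all genes the median log2 fold change was 0.00 and the median absolute log2 fold change 0.0768, while the median 95% interval reached 0.197 to either side on the log2 scale, a 1.15-fold change. The whole interval lay within a 25% change (an increase, or the same ratio downwards) for 59.2% of the genes, within 1.5-fold for 89.7% and within 2-fold for 98.3%. The share within 1.5-fold was 73.5% with the title code as a covariate. Precision was higher for more abundant genes. Among 1663 genes with a mean of 100 RPKM or more, 98.8% were bounded within 1.5-fold, against 73.9% of 2376 genes between 1 and 5 RPKM and 58.3% of 917 genes under 1 RPKM. The fold changes of low genes are also understated by the added 0.5. In 5 of the 13879 genes the interval lay wholly beyond a 25% change (Oprk1, Fgf10 and H60b higher, Shank1 and Tmem114 lower, named because of those values). In 0 genes it lay beyond a 1.5-fold change. These intervals hold for single genes and are not adjusted for the number tested. All 5 genes had an adjusted p of 0.674.

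**Figure D1:**
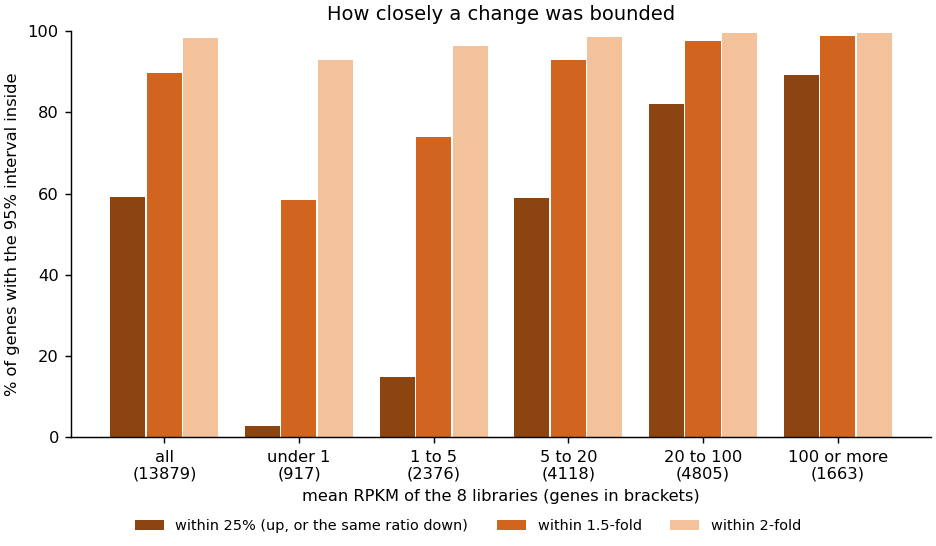
Share of genes (percent, vertical axis) whose 95% interval for the heterozygous against wild-type change lay within 25%, 1.5-fold or 2-fold, for all 13879 genes and by mean RPKM of the 8 libraries. Bounds within 25% were had for 2.73% of the genes under 1 RPKM and for 89.1% of those at 100 RPKM or more.

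**Figure D2:**
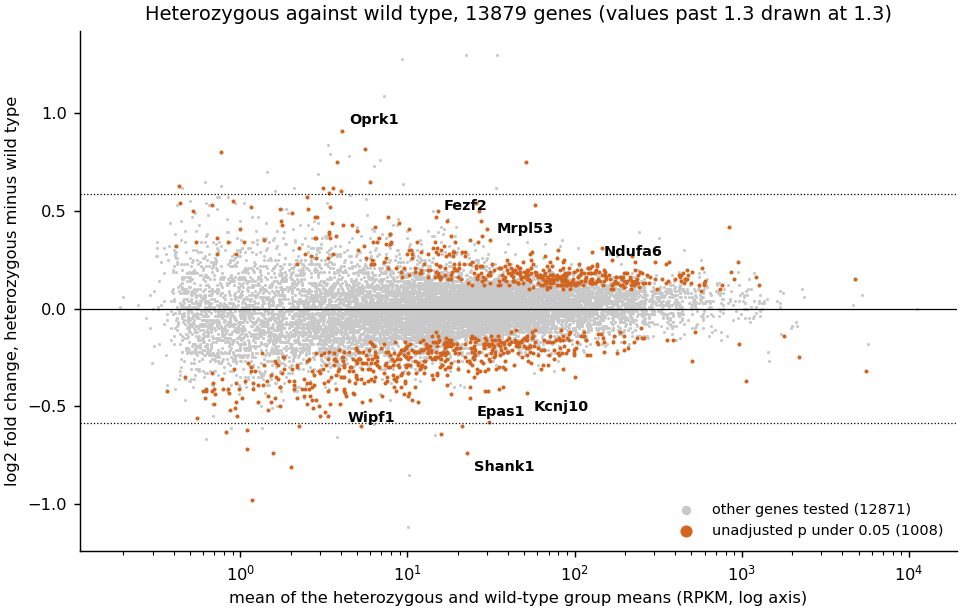
Log2 fold change, heterozygous minus wild type (vertical), against the mean of the group means in RPKM (horizontal, log axis), 1 point a gene; orange marks the 1008 genes at an unadjusted p under 0.05 and dotted lines a 1.5-fold change. None passed the adjusted threshold, and 48 genes lay past 1.5-fold in the estimate.

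Since no gene passed, the 8 genes with the smallest p in each direction (group mean of 2 RPKM or more on the higher side) are given as the edge of the distribution; they were picked for this contrast and none was called. Fezf2, a transcription factor that specifies deep-layer projection neurons of the cortex, was at 18.5, 17.3, 18.5 and 15.1 RPKM in heterozygous replicates 1 to 4. It was at 11.5, 12.7, 13.4 and 11.8 RPKM in wild-type replicates 1 to 4. The groups did not overlap, and the log2 fold change was 0.47 ± 0.08 (SE, adjusted p = 0.313). The kappa opioid receptor gene Oprk1 was at 5.41, 5.40, 6.65 and 4.21 RPKM in heterozygous and at 3.43, 3.14, 1.89 and 2.28 in wild-type libraries. It had the highest estimate of these 8, 0.91 (95% interval 0.49 to 1.33, adjusted p = 0.674), again without overlap. Elavl2, which encodes an RNA-binding protein of neurons, stood at 76.9 ± 5.90 (SD, n = 4) against 64.9 ± 2.42 RPKM.

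Of the other higher genes, Ndufa6, a subunit of respiratory complex I, was at 155, 148, 144 and 139 RPKM in heterozygous and 132, 132, 119 and 117 in wild-type libraries (log2 fold change 0.23 ± 0.06). Cox17, a copper chaperone for complex IV, stood at 110 ± 5.87 against 95.7 ± 3.51 RPKM (SD, n = 4), and Pet100, a complex IV assembly factor, at 92.7 ± 2.79 against 78.2 ± 5.35. Mrpl53, a protein of the mitochondrial ribosome, stood at 34.9 ± 2.07 against 27.4 ± 2.67 RPKM. The last of the 8, Sssca1, stood at 17.6 ± 1.19 against 14.2 ± 0.906 RPKM. In each of these 5 genes the lowest heterozygous library lay above the highest wild-type library.

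Epas1, the hypoxia-inducible factor 2 alpha gene, prominent in endothelium, led the lower side. It was at 18.9, 19.4, 18.3 and 22.6 RPKM in heterozygous and 26.3, 27, 28.8 and 27.5 in wild-type libraries, without overlap (log2 fold change -0.46 ± 0.07, adjusted p = 0.144). Shank1, a scaffold of the postsynaptic density, was at 15.5, 15.7, 13.3 and 23.6 RPKM in heterozygous and 22.7, 25.6, 35.8 and 29.8 in wild-type libraries. Its fold change, -0.74 (95% interval -1.08 to -0.39), came with an overlap: heterozygous replicate 4 lay above wild-type replicate 1. Kcnj10, the inward rectifier potassium channel of glia, was at 46.5, 40.9, 47.9 and 40.1 against 54.0, 52.0, 65.7 and 66.3 RPKM (-0.43 ± 0.10).

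Of the other lower genes, Wipf1, a partner of the Wiskott-Aldrich syndrome proteins, stood at 3.22 ± 0.160 against 4.72 ± 0.331 RPKM (SD, n = 4). The formin gene Daam2 stood at 12.2 ± 0.657 against 15.7 ± 1.0 RPKM, and Msn, which encodes moesin, at 8.01 ± 0.421 against 10.3 ± 0.611. Mtss1l, whose protein binds actin and membranes, stood at 25.9 ± 2.79 against 34.9 ± 3.94 RPKM. The last, Cmtm3, stood at 8.46 ± 0.862 against 11.7 ± 1.34.

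**Figure D3:**
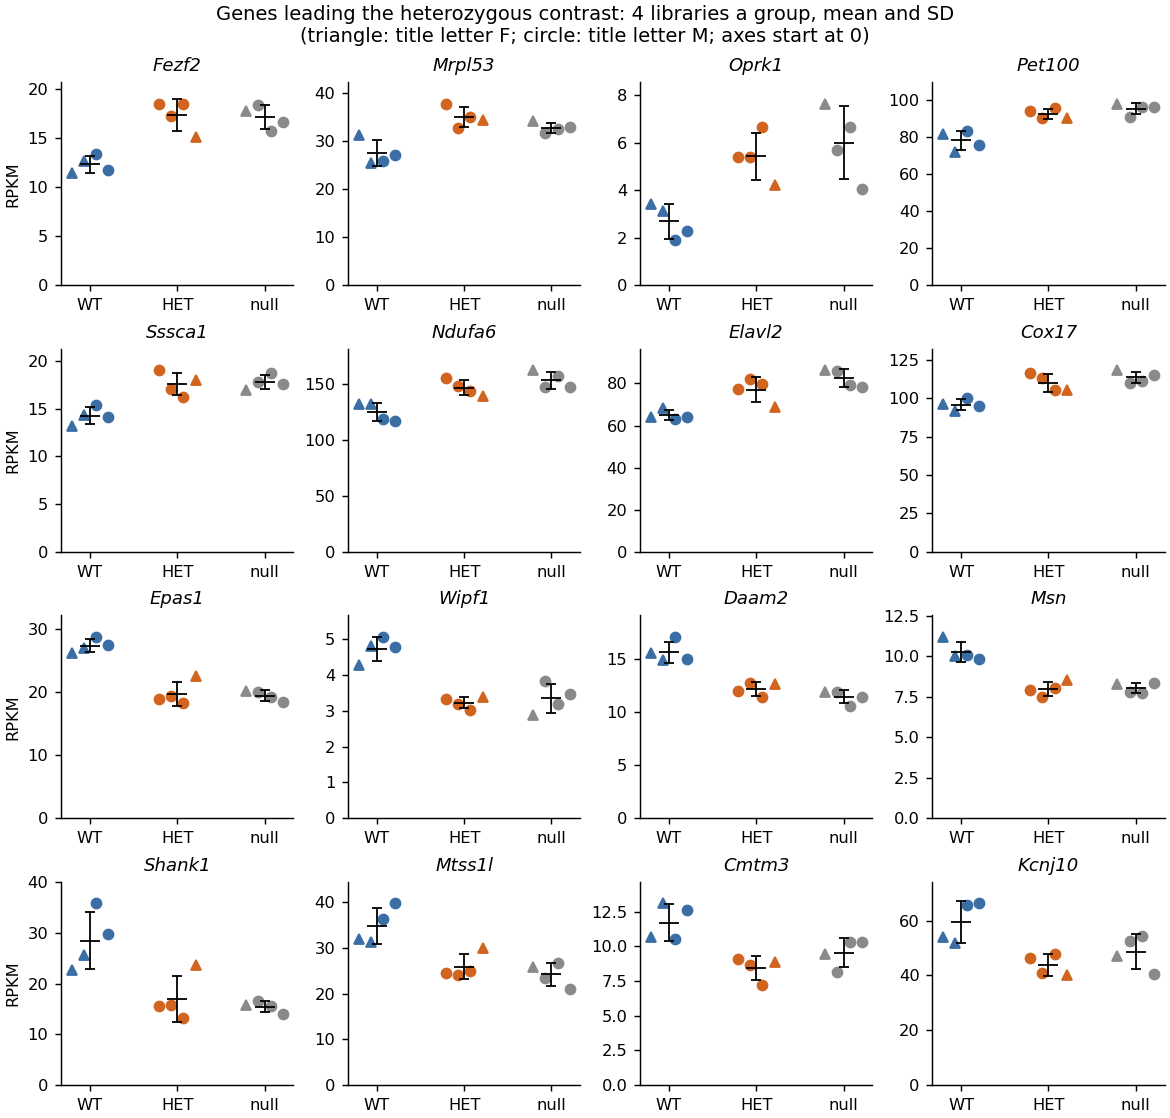
RPKM of the 16 genes that lead the contrast (axes start at 0) in 4 wild-type (WT), 4 heterozygous (HET) and 4 null libraries, with the mean and SD in black; triangles are libraries with the title letter F, circles those with M. Heterozygous replicate 4, the only heterozygous triangle, lies nearest the wild-type mean in 10 of the 16 genes.

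The libraries' titles carry a letter and a number that the labels do not explain, and they follow the genotypes closely. Heterozygous replicates 1 to 3 and null replicates 2 to 4 have the code M14, null replicate 1 has F14, heterozygous replicate 4 and wild-type replicates 1 and 2 have F13, and wild-type replicates 3 and 4 have M15. The letters matched the Y-linked genes: Ddx3y stood at 50.4 to 63.1 RPKM in the 5 heterozygous and wild-type libraries with an M and at 0 to 0.0797 in the 3 with an F. No heterozygous library shares M15 and no wild-type library shares the number 14. F13 alone holds both genotypes, with 1 library against 2, so the effect of the lost copy and whatever the number stands for cannot be told apart. The titles also end in a serial number. In its order all libraries with the number 14 come before all others, so the serial number also follows genotype closely.

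Of the heterozygous libraries, replicate 4 lay nearest the wild-type mean in 726 (72.0%) of the 1008 genes at an unadjusted p under 0.05, against 36.8% of all genes tested. Without it, 4 genes passed: Epas1 (-0.52 ± 0.06, adjusted p = 0.0116), Shank1 (-0.90 ± 0.13, adjusted p = 0.0406) and the kainate receptor subunit gene Grik5 (-0.41 ± 0.06) were lower and Fezf2 (0.53 ± 0.08) higher. Within the letter M, where codes M14 and M15 coincide with genotype, 10 genes passed, 4 higher and 6 lower, among them Shank1 at -1.12 and the proteoglycan gene Dcn at 1.0. Dcn stood at 24.2 RPKM in heterozygous replicate 4 and at 19.7 and 25 in wild-type replicates 1 and 2, so the libraries with an F did not share that difference.

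Within F13, heterozygous replicate 4 was the only library of its genotype, and a fit of the letter F libraries alone, which takes the spread from wild-type replicates 1 and 2 and assumes that the lone library varies like them, called 0 genes, with 591 at an unadjusted p under 0.05. The difference of that library from the mean of wild-type replicates 1 and 2 was set beside the difference between heterozygous replicates 1 to 3 and wild-type replicates 3 and 4, both on the log2 scale. Of the 16 leading genes, all but Pet100 and Sssca1 differed less within F13. The widest differences between the M libraries were those of Oprk1 (0.32 within F13 and 1.29 between the M libraries), Shank1 (-0.03 and -1.12), Mtss1l (-0.08 and -0.62), Epas1 (-0.23 and -0.56), Wipf1 (-0.37 and -0.56), Kcnj10 (-0.40 and -0.55) and Fezf2 (0.31 and 0.51). Shank1 and Mtss1l had almost no difference within F13, whereas Wipf1 and Kcnj10 kept most of theirs. Smaller differences between the M libraries were those of Ndufa6 (0.07 and 0.33) and Elavl2 (0.05 and 0.32), and the values lay closer together for Cmtm3 (-0.40 and -0.45), Msn (-0.30 and -0.33) and Pet100 (0.24 and 0.23). With the title code as a covariate, 0 genes passed and 309 had an unadjusted p under 0.05.

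The libraries also differed in marker genes of the olfactory bulb, a tissue that borders the frontal cortex. A list of 12 bulb genes, chosen after these values were seen, had mean log2 levels of 2.53, 0.30, 4.41 and 0.82 in heterozygous replicates 1 to 4 and 1.23, 1.01, 0.38 and 4.24 in wild-type replicates 1 to 4. Eomes, a transcription factor of bulb projection neurons, was at 11.9 RPKM in heterozygous replicate 3 and 13 in wild-type replicate 4, and at 0 in wild-type replicate 3. Calb2, which marks many bulb interneurons, was at 130 and 141 RPKM in the same high libraries and at 10.7 to 37.2 in the other 6. High libraries occurred in both groups, and the list's median difference was 0.25 with 0 of 12 genes at an unadjusted p under 0.05. With the list's mean as a covariate 0 genes passed, and Epas1 (-0.45), Fezf2 (0.47) and Shank1 (-0.72) moved little. Slc17a7, the vesicular glutamate transporter of cortical excitatory neurons, was high in both groups. It stood at 580 ± 33.4 RPKM in heterozygous and 591 ± 18.4 in wild-type libraries (SD, n = 4). That gene alone does not measure the share of bulb tissue in a library.

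**Figure D4:**
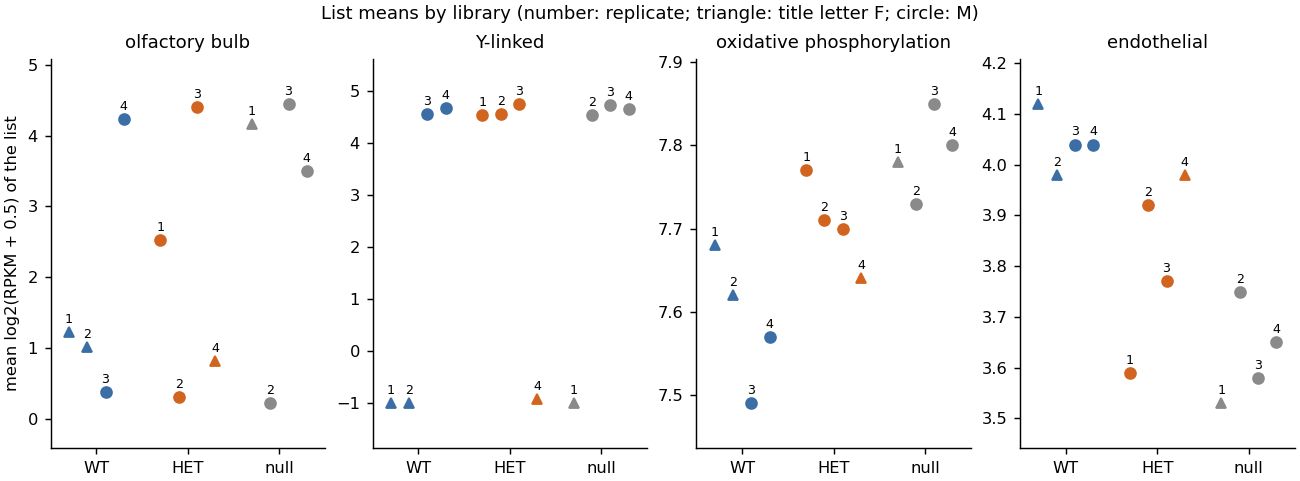
Mean log2(RPKM + 0.5) of 4 gene lists in each library (numbers are replicates, triangles the title letter F), by group. Olfactory bulb genes are high in heterozygous replicates 1 and 3, wild-type replicate 4 and null replicates 1, 3 and 4. Y-linked genes split by letter, and oxidative phosphorylation and endothelial means overlap or nearly touch between wild-type and heterozygous libraries.

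Immune cells were examined first among the gene lists, since miR-142 is expressed there. Homeostatic microglia genes, which define resting brain macrophages, had a median log2 fold change of -0.09 over 20 genes, beside 0.00 for all genes. At an unadjusted p under 0.05, 1 was higher and 1 lower, beside 3.34% and 3.93% of all genes tested. Tmem119, a microglial surface protein, was at 23.6, 22.4, 21.1 and 22.1 RPKM in heterozygous and 19.8, 20.5, 25.4 and 23.4 in wild-type libraries, an overlapping 0.01 ± 0.08. Cx3cr1, the fractalkine receptor, stood at 53.7 ± 5.36 against 59.4 ± 4.01 RPKM, and P2ry12, a purinergic receptor, at 55.6 ± 5.30 against 52.2 ± 3.83. The orphan receptor gene Gpr34 (0.22 ± 0.09) and the lipid receptor gene Trem2 (-0.22 ± 0.10) were the 2 with an unadjusted p under 0.05. For 18 of the 20 the interval lay within 1.5-fold. The disease-associated microglia list, with 20 of 23 genes tested, had a median of 0.02, and Cst7 and Itgax, both markers of that state, were below the filter.

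The antigen presentation genes H2-Aa, H2-Ab1 and Cd74 had higher estimates in heterozygous cortex, though none passed. H2-Aa, a class II histocompatibility chain, was at 4.38, 3.37, 4.05 and 5.99 RPKM in heterozygous and 2.79, 3.49, 2.46 and 2.09 in wild-type libraries (0.62 ± 0.16, adjusted p = 0.674). H2-Ab1, its partner chain, was at 3.68, 3.50, 3.12 and 5.34 against 2.90, 2.94, 2.04 and 1.64 RPKM (0.62 ± 0.17), and the groups did not overlap. Cd74, the class II invariant chain, was at 6.99, 8.05, 7.63 and 13.3 against 6.93, 7.84, 4.72 and 5.49 RPKM (0.47 ± 0.20). In all 3 genes the highest library was heterozygous replicate 4. The whole list of complement and antigen presentation genes had a median of -0.01 over 18 genes. At an unadjusted p under 0.05, 3 were higher and 0 lower, beside 3.34% and 3.93% of all genes tested. Interferon response genes had a median of -0.09 over 16 genes and leukocyte genes -0.14 over 10, with 5 of those 10 bounded within 1.5-fold. In the leukocyte list S100a9 and S100a8, calcium-binding proteins of neutrophils, had wide errors, at 0.84 ± 0.49 and 0.58 ± 0.49.

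Oligodendrocytes, the myelinating cells named in the title of the series, were not called either. The median log2 fold change of 30 myelin genes was 0.16, with 2 higher (Gjb1 and Qdpr) and 0 lower at an unadjusted p under 0.05. Myelin basic protein, Mbp, was at 606, 678, 605 and 479 RPKM in heterozygous and 556, 577, 469 and 476 in wild-type libraries (0.18, 95% interval -0.12 to 0.49). Gjb1, a gap junction protein of oligodendrocytes, was at 5.74, 5.19, 5.03 and 3.66 against 4.46, 2.44, 2.79 and 2.71 RPKM (0.60 ± 0.24). The list's mean level was 4.88, 4.98, 4.93 and 4.64 (log2) in heterozygous and 4.93, 4.80, 4.50 and 4.63 in wild-type libraries, and within F13 the heterozygous library lay below both wild-type ones. Precursor and newly formed oligodendrocyte genes had a median of -0.07 over 14 genes.

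Energy and lipid genes with an unadjusted p under 0.05 were all on the higher side. Of 20 oxidative phosphorylation genes, 7 were higher and 0 lower at an unadjusted p under 0.05, beside 3.34% higher over all genes, 0 were called, and the median was 0.11. Uqcrb, a subunit of complex III, was at 270, 253, 257 and 220 RPKM in heterozygous and 217, 210, 201 and 215 in wild-type libraries (0.24 ± 0.07). Atp5b, the catalytic beta subunit of ATP synthase, was at 648, 619, 636 and 574 against 593, 576, 545 and 564 RPKM, an overlap (0.12 ± 0.05). All 20 genes were bounded within a 1.5-fold change. The list's mean was 7.77, 7.71, 7.70 and 7.64 (log2) in heterozygous and 7.68, 7.62, 7.49 and 7.57 in wild-type libraries. Within F13 the heterozygous library thus lay between the wild-type ones. Of 21 cholesterol synthesis genes, 7 were higher and 0 lower at an unadjusted p under 0.05, beside 3.34% higher over all genes. The median was 0.13, and all 21 were bounded within 1.5-fold. Between null and wild type the oxidative phosphorylation and cholesterol lists had medians of 0.20 and 0.04. Sqle, squalene epoxidase, was at 37.5, 33.3, 35.2 and 35.0 against 30.6, 31.7, 29.6 and 31.0 RPKM (0.20 ± 0.06). Hmgcs1, which makes the precursor of mevalonate, was at 267, 236, 259 and 254 against 232, 216, 235 and 217 RPKM (0.17 ± 0.05). The groups did not overlap in these 2 genes. The median of 34 cytosolic ribosomal protein genes was 0.02, with 33 bounded within 1.5-fold.

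Vascular, astrocyte and synapse lists had medians below 0. The endothelial list had the lowest median, -0.22 over 14 genes, with 3 lower and 0 higher at an unadjusted p under 0.05, beside 3.93% lower over all genes. Cdh5, the cadherin of endothelial junctions, was at 3.61, 3.57, 2.84 and 4.10 RPKM in heterozygous and 5.41, 4.17, 5.26 and 4.61 in wild-type libraries, without overlap (-0.41 ± 0.13). The growth factor receptor gene Flt1 was at 8.00, 11.5, 8.14 and 11 against 13.2, 11.4, 14.2 and 15.3 RPKM (-0.48 ± 0.15). In bulk RNA, fewer cells of a type and less RNA per cell cannot be told apart. Among 14 astrocyte genes the median was -0.10, and Slc1a2, the main glial glutamate transporter, was at 2057, 2037, 1870 and 2101 against 2491, 2425, 2562 and 2138 RPKM, without overlap (-0.25 ± 0.07). Of 21 synapse genes, 4 were lower (Shank1, Shank2, Shank3 and the scaffold gene Dlg4) and 0 higher at an unadjusted p under 0.05. Over all genes 3.93% were lower at that p. The synapse median was -0.08, with 7 of the 21 estimates above 0. The synapse list's mean was 7.51, 7.59, 7.49 and 7.63 in heterozygous and 7.54, 7.64, 7.80 and 7.66 in wild-type libraries. Within F13 the heterozygous library lay between the wild-type ones.

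Neuronal identity genes differed in both directions, none past the threshold. Of 15 excitatory neuron genes 3 were higher (Fezf2, Foxp2 and Etv1, all of deep layers) and 4 lower at an unadjusted p under 0.05. Over all genes tested the shares were 3.34% higher and 3.93% lower. The median of the 15 was 0.00. The lower ones included Camk2a, a kinase of excitatory synapses activated by calcium, at 881, 935, 799 and 1084 RPKM in heterozygous and 1107, 1271, 1268 and 1108 in wild-type libraries (-0.37 ± 0.10), and Cux2, an upper-layer transcription factor (-0.33 ± 0.13). Sst, the somatostatin of a class of interneurons, stood at 183 ± 14.2 against 154 ± 9.55 RPKM without overlap. The interneuron list as a whole had a median of 0.12, and it followed the bulb genes: its highest means were 5.91 in heterozygous replicate 3 and 5.87 in wild-type replicate 4. The part of the bulb in that median was not tested. Immediate early genes had a median of 0.11, but 2 of 14 were bounded within 1.5-fold, and their list means ran from 3.59 to 4.63 with 1 copy and from 3.37 to 4.40 with both. Clock genes had a median of -0.19 over 14, with Cry1, a repressor of the clock, at 10.4 ± 1.21 against 12.1 ± 0.188 RPKM; the hour of dissection is not given in the sources used here.

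**Figure D5:**
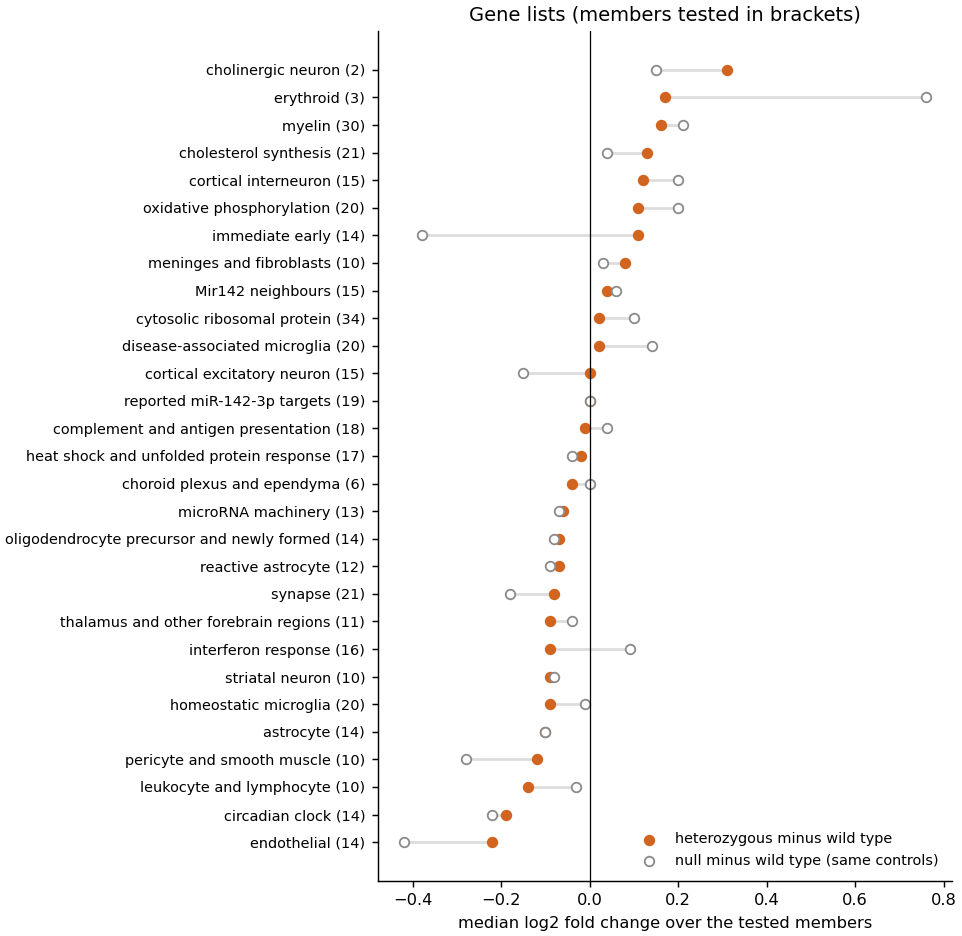
Median log2 fold change of 29 gene lists (tested members in brackets), heterozygous minus wild type (orange) and null minus wild type (open), which share the wild-type libraries. Heterozygous medians run from -0.22 for endothelial genes to 0.31 for cholinergic neuron genes, of which 2 were tested.

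All genes tested were also split by the length and base composition of their coding sequence. Among the 20% of genes with the shortest coding sequence, at a median coding length of 534 bases, 6.95% were higher and 2.63% lower at an unadjusted p under 0.05. Among the 20% with the longest, at 3495 bases, 0.793% were higher and 7.35% lower. By the GC content of the coding sequence, the 20% with the lowest GC (median 44.7%) had 6.52% higher and 0.895% lower, and the 20% with the highest (60.8%) had 1.49% higher and 7.05% lower. The gap in level between those high-GC and low-GC genes (log2), as a deviation from the mean of the 8 libraries, was -0.09, -0.01, -0.17 and 0.06 in heterozygous replicates 1 to 4 and -0.02, 0.03, 0.08 and 0.11 in wild-type replicates 1 to 4. Of the leading genes, the mitochondrial genes Cox17, Pet100 and Ndufa6 were short, at 189, 228 and 393 bases, and the scaffold gene Shank1 long, at 6501. The part of length and GC in the differences of these genes was not tested.

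Transcripts with a match to the seed are the candidate targets of miR-142-3p. An 8mer match (ACACTACA, the complement of bases 2 to 8 followed by A, on the sense strand of the longest annotated 3′ UTR of a gene) was present in 3.46% of 13353 tested genes with a UTR, and a match with bases 2 to 8 (ACACTAC, which every 8mer also holds) in 7.77%. The 462 genes with an 8mer had a median log2 fold change of -0.009, against 0.001 in 11554 genes with no 7mer or longer match. Of the 462, 2.38% were higher and 5.84% lower at an unadjusted p under 0.05, against 3.38% and 3.76% of genes with no match. For miR-142-5p, the 716 genes with an 8mer (ACTTTATA) had a median of 0.010 and 10076 genes with no match -0.003. The gap for the 3p arm was -0.010, and the spread between libraries of the mean level of the 3p class relative to genes with no match was 0.016 (SD). UTRs with an 8mer for the 3p arm were longer (median 2735 bases) than those with none (1253 bases).

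Reported targets of miR-142-3p were listed by name, and 19 were tested. Their median log2 fold change was 0.00, with 0 of 19 at an unadjusted p under 0.05 in either direction and 18 bounded within 1.5-fold. The predicted sites of 4 of them in GRCm38, from GENCODE vM21 transcripts, are shown with the 8mer in capitals. They are examples, and other reported targets also carry an 8mer.
Il6st, chr13:112506251-112506272, plus strand: agaccagaattcACACTACAag
Cfl2, chr12:54860421-54860442, minus strand: atgagtcttgaaACACTACAga
Rac1, chr5:143506244-143506265, minus strand: agagattactttACACTACAtt
Twf1, chr15:94578189-94578210, minus strand: ctgaagcctagtACACTACAtc
Il6st, the signal-transducing receptor of the interleukin 6 family, was at 35.0, 36.8, 38.3 and 35.7 RPKM in heterozygous and 35.4, 36.6, 35.3 and 38.1 in wild-type libraries (0.00 ± 0.06). Cfl2, an actin-severing cofilin, ranged from 135 to 154 RPKM with 1 null allele and from 114 to 161 without (0.10 ± 0.09). Rac1, a small GTPase of the cytoskeleton, was at 472, 447, 475 and 466 against 459, 452, 431 and 447 RPKM (0.06 ± 0.05). Twf1, which binds actin monomers, was at 52.4, 49.0, 58.8 and 51.8 against 53.3, 49.8, 54.4 and 50.6 RPKM (0.02 ± 0.07). In all 4 genes the groups overlapped.

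The other 15 reported targets lay between -0.24 and 0.11. Among them, Adcy9, Lrrc32, Prkca and Tet2 had no match with bases 2 to 8 in the 3′ UTR searched. Ash1l, Hmgb1 and Wasl had such a match but no 8mer. The adenylyl cyclase gene Adcy9 stood at -0.10 ± 0.10, the transforming growth factor receptor gene Tgfbr1 at 0.05 ± 0.07, the integrin gene Itgav at 0.10 ± 0.06 and the kinase gene Rock2 at 0.11 ± 0.09. The neural Wiskott-Aldrich protein gene Wasl stood at 0.02 ± 0.06, the methyltransferase gene Ash1l at -0.03 ± 0.05, the kinase adaptor gene Tab2 at -0.04 ± 0.05 and the clock gene Arntl at -0.06 ± 0.10. Hmgb1, a chromatin protein, stood at 0.10 ± 0.07, Prkca, protein kinase C alpha, at 0.01 ± 0.08, and Irak1, a kinase of interleukin 1 signalling, at -0.11 ± 0.08. Slc1a3, a glial glutamate transporter, stood at -0.13 ± 0.10, the methylcytosine dioxygenase gene Tet2 at -0.17 ± 0.10 and Lrrc32 at -0.24 ± 0.18. Arhgap35, a GTPase-activating protein gene with an 8mer, was at 83.1, 85.2, 84.4 and 82.3 RPKM in heterozygous and 86.6, 86.6, 91.2 and 85.7 in wild-type libraries, the only reported target whose groups did not overlap, at -0.06 ± 0.05. MicroRNA pathway genes such as Dicer1 (15.7 ± 1.31 against 16.4 ± 0.654 RPKM) had a median of -0.06, with 0 of 13 at an unadjusted p under 0.05.

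Genes beside Mir142 were examined because an altered allele can change its surroundings. Of 31 genes of the table within 1 Mb of the hairpin, 23 were tested, 0 were called and 21 were bounded within 1.5-fold, with a median of 0.04. Bzrap1 (Tspoap1 in RefSeq), which lies 1.27 kb from the hairpin, was at 52.3, 58.4, 54.6 and 77.9 RPKM in heterozygous and 68.9, 71.5, 69.9 and 66.7 in wild-type libraries (-0.20 ± 0.10, adjusted p = 0.678). The first 3 heterozygous libraries lay below all wild-type ones and replicate 4 above them. Supt4a, a transcription elongation factor gene on the other side, was at 69.6, 66.4, 64.8 and 63.7 against 62.1, 56.1, 58.8 and 59.9 RPKM, without overlap (0.16 ± 0.05, adjusted p = 0.674). Cltc, the clathrin heavy chain gene (0.13 ± 0.05), and Gdpd1 (0.13 ± 0.06) were the other 2 at an unadjusted p under 0.05. Among all genes tested 3.34% were higher at that p.

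The null libraries give the scale of losing both copies, with the limit that both contrasts use the same wild-type libraries. A further limit is the bulb: the mean of the 12 bulb genes was 4.17, 0.22, 4.45 and 3.50 (log2) in null replicates 1 to 4. It was 1.23, 1.01, 0.38 and 4.24 in wild-type replicates 1 to 4. The bulb list's median log2 fold change was 1.29 between null and wild type, beside 0.25 between heterozygous and wild type. Between null and wild type 65 genes (0.468%) were called, 29 higher and 36 lower, all at adjusted p of 0.0493 to 0.0495, and the count ran from 0 to 1297 over the other settings. It was 0 without heterozygous replicate 1 or 2 or wild-type replicate 3 or 4. With the bulb list's mean as a covariate it was also 0, and without heterozygous replicate 4 it was 697. Between null and heterozygous 0 genes (0%) were called, with a smallest adjusted p of 0.99 and 456 genes at an unadjusted p under 0.05, and voom also called 0. With libraries of the letter F alone, 1 null against 1 heterozygous, 221 were called, assuming that lone libraries vary like the other groups.

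The genes called in null cortex with the widest changes are given here side by side with their heterozygous values. They were chosen for their difference in null cortex, and that choice alone favours smaller values in the other comparison. Lrrc10b stood at 3.89 RPKM in wild-type, 2.58 in heterozygous and 1.73 in null libraries, with log2 fold changes of -0.53 ± 0.20 and -1.0 ± 0.20. Lef1, a transcription factor of Wnt signalling, stood at 3.92, 2.77 and 1.90 RPKM (-0.42 ± 0.14 and -0.86 ± 0.14). The endothelial genes Flt1 (-0.48 and -0.74) and Eng (-0.42 and -0.70) and the focal adhesion gene Parvb (-0.43 and -0.69) were also lower in estimate in both, and Shank1 stood at -0.74 and -0.84. On the higher side, B3galt2, a glycosyltransferase gene, stood at 47.0 RPKM in wild-type, 68.5 in heterozygous and 82.3 in null libraries (0.53 ± 0.13 and 0.79 ± 0.13). Nxph2, a neurexin ligand, had 0.51 and 0.71, Evi2a 0.28 and 0.61, and the corepressor gene Tle4 0.35 and 0.56. Fezf2 (0.47 and 0.45) and Oprk1 (0.91 and 1.03) stood about as high in heterozygous as in null cortex. The difference between null and heterozygous was not called for any of these 12 genes; for Lrrc10b it was -0.47 ± 0.20 and for Lef1 -0.44 ± 0.14. Heterozygous replicates 1 to 3 and all null libraries share the title number 14, so genotype and number cannot be told apart in these values.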

How the data were processed

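RNA from 12 prefrontal cortex libraries was analysed as RPKM, which the authors computed and deposited for 20661 genes. STAR, HTSeq and the mm10 build are named in the submitters' processing notes, without versions. Per the labels, libraries were made with the TruSeq Stranded kit after RiboZero Gold depletion and read as 75 bp pairs. Whole reads were recovered from the steps of the values within 0.005 reads for all 17506 genes above 0. Of the implied lengths, 94.4% lay within 5% of the GENCODE vM21 coding length. Those coding lengths also served to find the library totals and to choose among the lengths that fitted, so this share is partly built in. Reads per gene and depth are therefore inferred values.

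Genes with at least 0.5 RPKM in at least 4 of the 12 libraries (13879) were tested with limma 3.58.1 in R 4.3.3 on log2(RPKM + 0.5), with the trend and robust options, over 3 genotypes. P-values were adjusted by Benjamini-Hochberg, and errors after ± are SE for log2 fold changes and SD for RPKM. Samples were grouped by the genotype label. No libraries were duplicates: the chi-square per degree of freedom of recovered reads was at least 3.49 in all 66 pairs. The steps were tested on simulated reads that varied independently between libraries. That simulation held none of the differences in bulb genes, title codes, length or GC described above, so it does not test the fit under them. The gene lists, the comparisons and the rule naming the 8 genes with the smallest p in each direction (at least 2 RPKM, predicted genes left out), up to 4 genes per list, the reported targets, the neighbours of Mir142 and the 6 called genes with the widest change each way between null and wild type were chosen with earlier results of these data known. Not every gene the rule names is printed. Sequences are from RefSeq (GRCm38.p6) and GENCODE vM21 (GRCm38), and summaries were made with Python 3.11.15. The alternatives were 22 planned settings and 4 chosen after seeing the data (the bulb list's mean, that mean with the title letter, the title number 14, and leaving out the 6 libraries with a bulb mean above 2).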

Additional observations from a re-analysis of the deposited data

Results flagged for a closer look

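Of 96 groups of 4 libraries examined for a library standing apart from the other 3 (16 genes, 31 lists and depth, in both groups), 9 did, and chance alone flags about 1 in 20. Wild-type replicate 2 was highest in Elavl2, at 68.5 RPKM against 63.2 to 64.1 in the rest, and heterozygous replicate 4 in Mtss1l, at 30.0 against 24 to 24.9. Heterozygous replicate 4 also had the highest mean of complement and antigen presentation genes, 3.52 (log2) against 3.13 to 3.16, and the lowest of Y-linked genes, -0.92 against 4.54 to 4.76, being the heterozygous library with the letter F. Heterozygous replicate 1 had the highest means of leukocyte genes (1.98 against 1.61 to 1.67) and erythroid genes (1.71 against 0.71 to 0.84). Wild-type replicate 4 had the highest means of striatal genes (4.26 against 3.98 to 4.02) and of thalamic and other forebrain genes (3.82 against 3.47 to 3.53), and was the wild-type library rich in bulb genes. Wild-type replicate 3 had the lowest mean of disease-associated microglia genes, 4.61 against 4.77 to 4.79.

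In 4 lists every heterozygous library lay on 1 side of every wild-type one with the letter M and on the other side with F. Lists in which only the mean changed side, such as immediate early genes, are not counted. This was not tested, since the letter F has 1 heterozygous library. The difference of the list means was 0.36 with the letter M and -0.22 with F for myelin, -0.15 and 0.06 for homeostatic microglia, -0.16 and 0.17 for interferon response, and -0.18 and 0.09 for heat shock and unfolded protein genes.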

How the results depend on the processing

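No paired analysis was possible because the heterozygous and wild-type libraries carry no replicate numbers in their labels. Of 26 alternatives, 23 called 0 genes between heterozygous and wild type; the others were the letter M libraries alone (10 genes), library weights (1, Epas1) and leaving out heterozygous replicate 4. Leaving out each library in turn gave 0 to 4 calls, 477 to 2026 genes at an unadjusted p under 0.05, a median interval reaching 0.209 to 0.219 and 85.5% to 88.0% of genes bounded within 1.5-fold. That count moved by over 1.5 times without heterozygous replicate 1 (477), 3 (609) or 4 (2026) or wild-type replicate 3 (663). It was 309 with the title code and 283 with the number 14 as covariate, where the median interval reached 0.306 in both, 2704 and 591 in the letter M and F libraries alone, 2097 with library weights and 177 in the low-bulb libraries. The share bounded within 1.5-fold was 73.5% and 73.8% with the code and the number as covariate, 77.8% and 77.7% within M and F and 81.9% in the low-bulb libraries. The seed class difference ranged from -0.018 to -0.004.

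Calls between null and wild type numbered 41 with the letter and 0 with the code as covariate, 916 and 695 within M and F, 0 at a pseudocount of 1, 2 with no filter, 166 at 2 RPKM, 0 with median-of-ratios scaling, 33 with voom, 6 without the trend and robust options, 1297 with library weights, 0 in each of the 4 alternatives chosen after seeing the data and 0 to 697 on leaving out a library. Between null and heterozygous, 221 were called within F and 0 otherwise. The cause of these changes was not tested. Of 16 leading genes over all alternatives (416 values), none changed sign and 6 values passed. These genes were picked for a small p in the same libraries, so an unchanged sign was likely beforehand and is no independent support. Of 805 list medians, 65 moved by more than the spread between libraries, most of them with the code or number as covariate or within F. Depth limits genes under 1 RPKM most.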
